A study of Mus musculus with 6 samples.

Results

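The vascular endothelial growth factor (VEGF) family was examined in cultured mouse heart cells as 10 genes: the secreted ligands Vegfa, Vegfb, Vegfc, Vegfd and Pgf, the receptor tyrosine kinases Flt1, Kdr and Flt4, and the neuropilin co-receptors Nrp1 and Nrp2. The genes were taken by symbol from a table of 31115 genes, and each symbol matched 1 row. The family was chosen by the measured log2 difference of Vegfd between the groups, which was among the largest decreases, so the differences of its members between the groups are given as a description. The limma calls of members are stated to place them among all genes and support nothing. RNA was sequenced from 3 libraries labelled Ad-SPTBN1, with a genotype of overexpressed βII spectrin, the membrane skeleton protein that Sptbn1 encodes, and from 3 libraries labelled Ad-scramble. All 6 are labelled as neonatal cardiomyocytes of the mouse in normal culture at day 2, grown in DMEM with fetal bovine serum and antibiotics. The labels give neither the constructs nor the strain nor the purity of the cells. They do not state that replicate libraries are separate cultures, and a p-value here covers the scatter among these libraries alone, which may be technical.

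VEGF ligands are dimeric growth factors that bind receptor tyrosine kinases on blood and lymphatic endothelial cells. Vegfa acts through the receptors encoded by Flt1 and Kdr and drives the growth and leakiness of blood vessels, whereas Vegfc and Vegfd act mainly through the receptor encoded by Flt4 and drive the growth of lymphatic vessels. In the heart, muscle cells, fibroblasts and mural cells secrete ligands, and the receptors are found mostly on endothelium. Neuropilins bind both VEGF ligands and class 3 semaphorins and pass them to the receptor kinases and to plexins.

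The level of Sptbn1 went against the labels of the libraries. Sptbn1 had 16.08, 16.45 and 15.75 FPKM (fragments per length of gene and per total of the library) in the libraries labelled Ad-SPTBN1, against 50.83, 48.25 and 50.08 FPKM in those labelled Ad-scramble. Libraries labelled Ad-SPTBN1 thus held 32.4% of the Sptbn1 level of those labelled Ad-scramble, so directions below are stated for the labels and not for a gain of spectrin. Reads recovered from the FPKM values came to 18775304 to 19638662 per library. The cultures held RNA of several cell types. Cdh5, the most abundant of the blood endothelial markers, had 14.9 ± 0.436 FPKM in the libraries labelled Ad-SPTBN1 and 15.0 ± 0.992 FPKM in those labelled Ad-scramble, as means with SD (n = 3 each). Col1a1, the most abundant of the fibroblast markers, came to 2402 ± 103 FPKM in the libraries labelled Ad-SPTBN1 and 2078 ± 152 FPKM in those labelled Ad-scramble. By contrast, limma called 8 of the 12 markers of its list lower in the libraries labelled Ad-SPTBN1, beside 5.50% of all genes tested. The cardiomyocyte marker Actc1 stood at 46.2 ± 2.27 FPKM in the libraries labelled Ad-SPTBN1 and 21.3 ± 0.405 FPKM in those labelled Ad-scramble. Actc1 had the largest difference of its list, and the highest level of it in the libraries labelled Ad-SPTBN1. Other markers of that list lay below Cdh5. Among them, Tnnt2 had 13.8 FPKM in the libraries labelled Ad-SPTBN1 and 10.5 FPKM in those labelled Ad-scramble. Myh6 had 11.7 FPKM in the libraries labelled Ad-SPTBN1 and 5.67 FPKM in those labelled Ad-scramble. The 10 tested markers of that list had log2 differences of 0.15 to 1.08, and limma called 7 of them higher. In such bulk samples, fewer cells of a type and less RNA per cell cannot be told apart.

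The start regions of the 10 genes were compared in the RefSeq promoter windows of the mouse genome build GRCm38.p6, which run from 250 bases before to 50 bases after each start. All 10 members matched, with 12 windows, since Vegfa and Pgf have more than 1 start. The GC box GGGCGG, searched on both strands, was present in at least 1 window of 9 members, and in 35.7% of 32851 windows of all genes. The window of Vegfd had none. It held 42.0% G and C and 2 CpG pairs, against 59.3% to 75.3% and 7 to 37 pairs in the windows of the other members. The TATA box letters TATAAA were found in the windows of Vegfd and Flt1, and in 13.6% of all windows. The AP-1 letters TGANTCA, which read the same on both strands and occur in 7.81% of all windows, were in 0 of the 12 windows. The hypoxia response core ACGTG, searched on both strands and present in 19.6% of all windows, was in 1 window, of Vegfa. These matches are descriptions of the letters in the windows and not of bound factors. The stretches below show, for each member but Vegfd, the GC box nearest to the start in capitals, and for Vegfd the letters TATAAA in capitals. The letters TATAAA of Flt1 open its stretch and are left in lower case. The stretches are shown to set the window of Vegfd, the member without a GC box, beside those of the others. Of all windows 14.9% had a share of G and C at or below that of Vegfd, and the median was 52.7%. No link between these letters and the levels was tested.
Vegfa: cggggcgggtctGGGCGGggcttgggggtg
Vegfb: cccgccccgcctCCGCCCgcggcccggtgg
Vegfc: gccgccctcctcCCGCCCcccggctccgcc
Vegfd: ataccacctcctTATAAAgcagctagaacc
Pgf: caggctgcagccCCGCCCcatacacggtct
Flt1: tataaatcgcccCCGCCCtcggctgcactt
Kdr: ccggtaatgaccCCGCCCccattcgctagt
Flt4: gccgcctcggctCCGCCCccgggccgctga
Nrp1: tgtgcggggaggGGGCGGgaggaagggagg
Nrp2: ggaacacagaagGGGCGGgccctgagcggg
Each stretch is written on the strand of its gene, so that CCGCCC is a GC box on the other strand. The stretch of Vegfd lies at chrX:164373437-164373466 on the plus strand and that of Nrp1 at chr8:128358963-128358992 on the plus strand. On the plus strand lie also those of Vegfc (chr8:54077288-54077317), Flt4 (chr11:49609647-49609676) and Nrp2 (chr1:62703278-62703307). On the minus strand lie those of Vegfa (chr17:46032422-46032451), Vegfb (chr19:6987738-6987767), Pgf (chr12:85177327-85177356), Flt1 (chr5:147726013-147726042) and Kdr (chr5:75978483-75978512). The letters TATAAA of Vegfd began 73 bases before its RefSeq start, and the GC box of Nrp1 began 98 bases before its own. The RefSeq starts differ from the gene bounds given further below. The stretches of Vegfd, Nrp1, Flt4 and Pgf lie within those bounds, and that of Nrp2 lies across its bound.

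All 10 members were expressed above the minimum mean of 1 FPKM for a test, with 143 to 11125 reads in a library. The ligands spanned the widest range. Vegfa was the most abundant member in both groups, followed by Pgf and Vegfc, and the receptor kinases Flt4 and Kdr were the least abundant. FPKM are scaled by gene length, so levels of different genes can be set in order. In the libraries labelled Ad-SPTBN1 the order was Vegfa, Pgf, Vegfc, Nrp1, Nrp2, Flt1, Vegfd, Vegfb, Flt4 and Kdr. Of its 9 neighbouring pairs, 7 had ranges over the 3 libraries that did not overlap, and the pairs of Nrp1 with Nrp2 and of Vegfb with Flt4 did not differ beyond their spread. In the libraries labelled Ad-scramble, Nrp2 and Flt1 stood before Nrp1 and the other places were the same. There 8 of the 9 neighbouring pairs were separate, and Flt1 and Nrp1 did not differ beyond their spread.

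**Figure D1:**
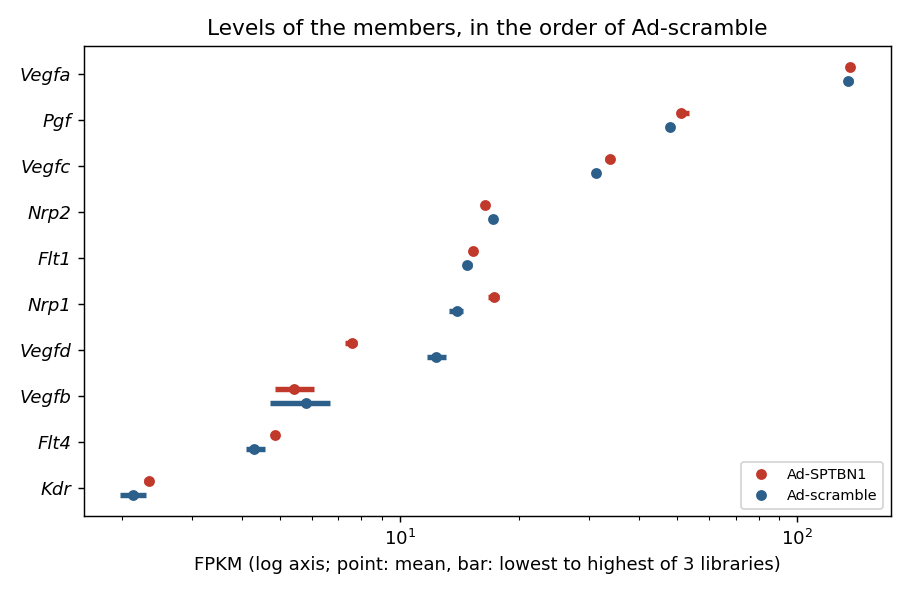
FPKM of each member on a log axis, with a point for the mean and a bar from the lowest to the highest of 3 libraries, red for Ad-SPTBN1 and blue for Ad-scramble. Vegfa stands at 136 FPKM in Ad-SPTBN1 and 134 FPKM in Ad-scramble, Kdr at 2.34 FPKM in Ad-SPTBN1 and 2.13 FPKM in Ad-scramble, and Vegfd and Nrp1 show the widest gaps.

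Among the ligands, Vegfd had the largest difference and was lower in the libraries labelled Ad-SPTBN1. Vegfd (ENSMUSG00000031380, GRCm38 chromosome X, 164373378 to 164402650, plus strand) encodes a ligand that is made as a precursor and becomes more active when proteases trim its ends. It had 7.82, 7.64 and 7.26 FPKM in the libraries labelled Ad-SPTBN1, against 12.19, 11.71 and 13.14 FPKM in those labelled Ad-scramble. The groups did not overlap, and the highest library labelled Ad-SPTBN1 lay well below the lowest labelled Ad-scramble. These values rest on 359, 348 and 323 reads in the libraries labelled Ad-SPTBN1, against 556, 514 and 586 reads in those labelled Ad-scramble. The mean was 61.4% of that in the libraries labelled Ad-scramble, with a log2 difference of FPKM + 1 of -0.64 ± 0.05 (SE, n = 3 per group). This is the value that led to the choice of the family. Among the 693 decreases that limma called, Vegfd stood at place 21, with Fgl2 (-0.64) just before it and Rgs19 (-0.63) just after it.

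The other lymphatic ligand did not share this direction. Vegfc (chromosome 8, 54077606 to 54187096, plus strand) came to 32.86, 34.50 and 34.36 FPKM in the libraries labelled Ad-SPTBN1, against 32.01, 30.70 and 30.66 FPKM in those labelled Ad-scramble. The libraries labelled Ad-SPTBN1 were all the higher ones, by a small margin, and the log2 difference was 0.12 ± 0.03 (SE).

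Vegfa (chromosome 17, 46016993 to 46032369, minus strand), the main ligand of blood vessel growth and a gene that low oxygen induces, stood at 133.04, 137.28 and 139.08 FPKM in the libraries labelled Ad-SPTBN1, against 133.08, 138.18 and 131.59 FPKM in those labelled Ad-scramble. The groups overlapped over nearly their whole range, and the log2 difference was 0.02 ± 0.03 (SE). Pgf (chromosome 12, 85166635 to 85177790, minus strand), the placental growth factor, which binds the receptor encoded by Flt1, had 53.36, 50.00 and 49.92 FPKM in the libraries labelled Ad-SPTBN1, against 48.38, 47.03 and 48.33 FPKM in those labelled Ad-scramble. Its groups did not overlap, and its log2 difference was 0.09 ± 0.03 (SE). Vegfb (chromosome 19, 6982473 to 6987651, minus strand), also a ligand of the receptor encoded by Flt1 and known in the heart for a part in fatty acid uptake, came to 4.84, 6.09 and 5.33 FPKM in the libraries labelled Ad-SPTBN1, against 4.70, 6.67 and 6.09 FPKM in those labelled Ad-scramble. Vegfb rested on 143 to 195 reads and varied most between libraries, with a coefficient of variation of 11.7% in the libraries labelled Ad-SPTBN1 and 17.3% in those labelled Ad-scramble. Its log2 difference was -0.08 ± 0.12 (SE), and the sign turned to 0.01 without Ad-scramble replicate 2.

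**Figure D2:**
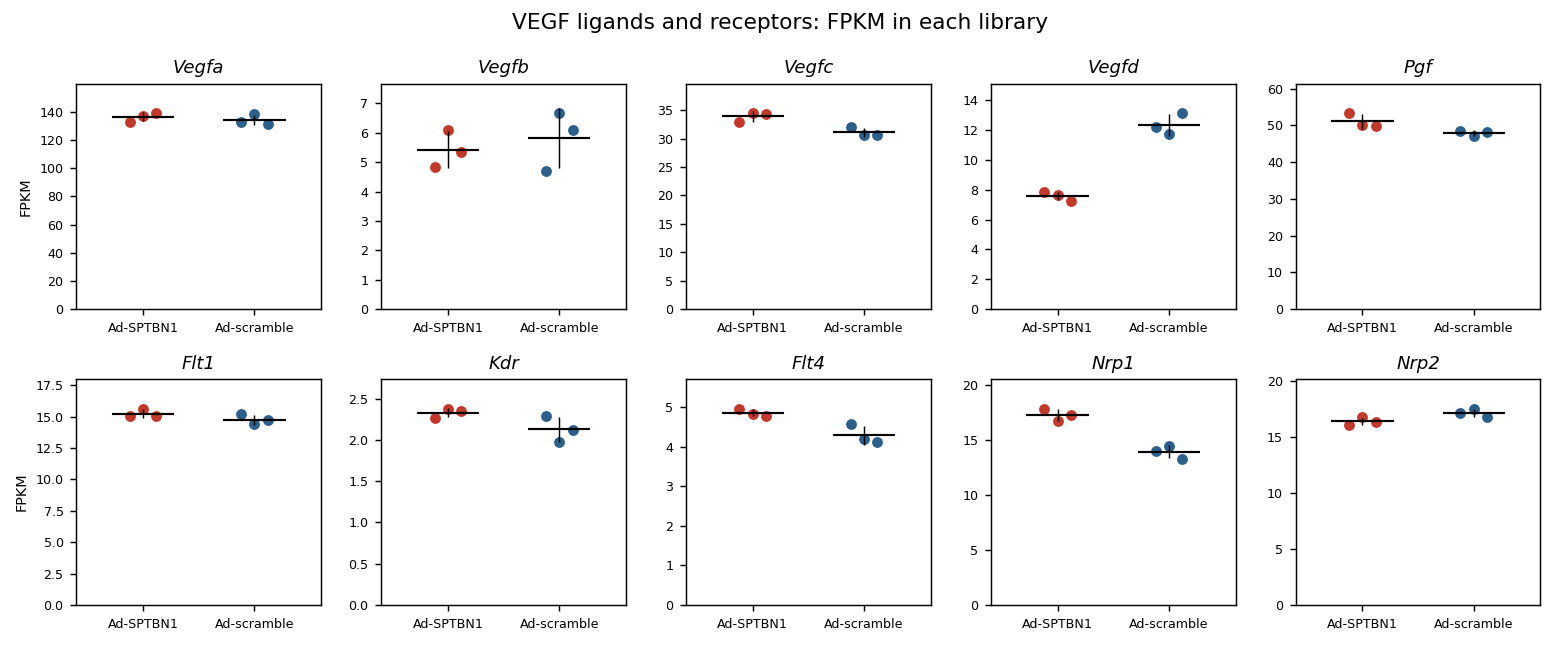
FPKM of the 10 members in each library, with a point per library, a line at the mean and a vertical bar of 1 SD (n = 3), Ad-SPTBN1 in red and Ad-scramble in blue. The 3 Ad-SPTBN1 libraries of Vegfd lie between 7.26 and 7.82 FPKM, below all 3 Ad-scramble libraries, and those of Nrp1 lie between 16.72 and 17.80 FPKM, above all 3.

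The receptor kinases had log2 differences of 0.04 to 0.15. Flt1 (chromosome 5, 147561604 to 147726011, minus strand) encodes a receptor that binds Vegfa tightly and signals weakly, so that it also acts as a decoy. It stood at 15.06, 15.63 and 15.06 FPKM in the libraries labelled Ad-SPTBN1, against 15.19, 14.39 and 14.71 FPKM in those labelled Ad-scramble, with overlapping groups and a log2 difference of 0.04 ± 0.04 (SE). The table holds 1 value per gene, so the soluble and the membrane form of Flt1 cannot be told apart.

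Kdr (chromosome 5, 75932827 to 75978458, minus strand), the main signalling receptor of blood endothelium, had 2.27, 2.38 and 2.35 FPKM in the libraries labelled Ad-SPTBN1, against 2.29, 1.98 and 2.12 FPKM in those labelled Ad-scramble. Kdr was the least abundant member, its groups overlapped, and the log2 difference was 0.09 ± 0.06 (SE). Flt4 (chromosome 11, 49609263 to 49652739, plus strand), the receptor of Vegfc and Vegfd on lymphatic endothelium, came to 4.96, 4.84 and 4.78 FPKM in the libraries labelled Ad-SPTBN1, against 4.57, 4.20 and 4.11 FPKM in those labelled Ad-scramble. Its groups did not overlap. Its log2 difference was 0.15 ± 0.05 (SE).

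Nrp1 was higher in every library labelled Ad-SPTBN1, while the groups overlapped for Nrp2. Nrp1 (ENSMUSG00000025810, chromosome 8, 128358604 to 128503363, plus strand) encodes the co-receptor that strengthens signalling of Vegfa through Kdr. It stood at 17.80, 16.72 and 17.27 FPKM in the libraries labelled Ad-SPTBN1, against 13.99, 14.44 and 13.27 FPKM in those labelled Ad-scramble. The groups did not overlap, the mean was 124% of that in the libraries labelled Ad-scramble, and the log2 difference was 0.29 ± 0.04 (SE). Nrp1 stood at place 236 among the 698 called increases. Nrp2 (chromosome 1, 62703285 to 62818695, plus strand), the co-receptor tied to Vegfc and to lymphatic vessels, had 16.10, 16.78 and 16.31 FPKM in the libraries labelled Ad-SPTBN1, against 17.17, 17.53 and 16.77 FPKM in those labelled Ad-scramble. The groups met at their edges, and the log2 difference was -0.06 ± 0.03 (SE).

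**Figure D3:**
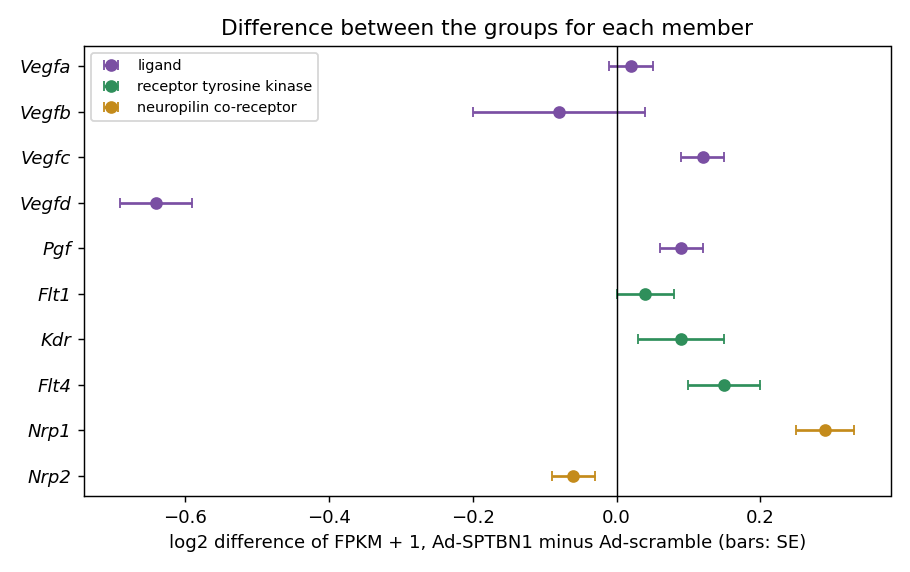
Log2 difference of FPKM + 1, Ad-SPTBN1 minus Ad-scramble, for each member, with bars of 1 SE (n = 3 per group) and colours by role. Vegfd stands at -0.64 and Nrp1 at 0.29, and the other 8 members lie between -0.08 and 0.15.

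Counted over the family, 1 of the 10 members was called higher (Nrp1) and 1 lower (Vegfd) by limma at an adjusted p under 0.05. Over the 12608 genes tested, 11.0% were called in either direction, 5.54% higher and 5.50% lower. The ranges of the groups did not overlap for 4 members in the higher direction (Vegfc, Pgf, Flt4 and Nrp1) and for 1 in the lower (Vegfd), where 16.5% and 15.8% of all tested genes did so. The median log2 difference of the members was 0.07, beside 0.002 over all genes tested. Since the contrast was used to choose the family, nothing is read from these counts. Exons of the members overlapped no other gene, except for a microRNA gene within 0.8% of the exon bases of Nrp1, and no member shared more than 0.7% of its 40-base words with another gene.

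The balance between members within a library followed the same values. The 5 ligands summed to 234 ± 2.22 FPKM in the libraries labelled Ad-SPTBN1 and 231 ± 2.44 FPKM in those labelled Ad-scramble, with overlapping ranges, and Vegfa made up 58.2 ± 0.793% of the sum in the libraries labelled Ad-SPTBN1 and 58.0 ± 0.881% in those labelled Ad-scramble (SD, n = 3 each). The share of Vegfd was 3.37%, 3.24% and 3.08% in the libraries labelled Ad-SPTBN1, against 5.29%, 5.00% and 5.72% in those labelled Ad-scramble. Vegfd stood to Vegfc in a ratio of 0.238, 0.221 and 0.211 in the libraries labelled Ad-SPTBN1, against 0.381, 0.382 and 0.428 in those labelled Ad-scramble. This share and this ratio are built from Vegfd, whose difference led to the choice of the family. Their lack of overlap between the groups is thus no further result. Nrp1 stood to Nrp2 in a ratio of 1.11, 0.996 and 1.06 in the libraries labelled Ad-SPTBN1, against 0.815, 0.823 and 0.791 in those labelled Ad-scramble. Flt1 made up 67.9 ± 0.430% of the summed receptor kinases in the libraries labelled Ad-SPTBN1 and 69.7 ± 0.723% in those labelled Ad-scramble.

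**Figure D4:**
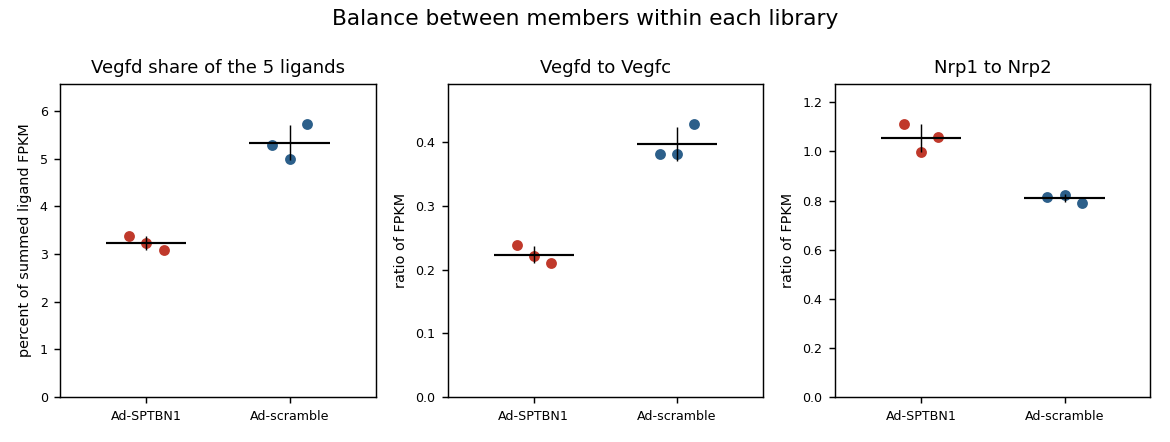
Share of Vegfd in the summed FPKM of the 5 ligands (percent) and the ratios of Vegfd to Vegfc and of Nrp1 to Nrp2, with a point per library, a line at the mean and a bar of 1 SD (n = 3). The Vegfd share lies between 3.08% and 3.37% in Ad-SPTBN1 and between 5.00% and 5.72% in Ad-scramble.

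Predicted genes, RIKEN clones, pseudogenes and genes without a symbol were left out of the search for genes like Vegfd. Among the other tested genes, the 5 whose pattern over the 6 libraries lay closest to that of Vegfd were Fam120a, Cd99l2, the matrix calcification inhibitor Mgp, Fgl2 and the chondroitin synthase Chsy3. Their root mean square distance from Vegfd on the log2 scale, after each gene's own mean was removed, was 0.048 to 0.060. Mgp came to 238.29, 224.91 and 225.41 FPKM in the libraries labelled Ad-SPTBN1, against 330.57, 353.15 and 356.21 FPKM in those labelled Ad-scramble. These 5 genes had log2 differences of -0.66 to -0.59, so the likeness is mainly that of the difference between the groups. The nearest tested genes on chromosome X did not share it. Piga, which lies downstream of Vegfd and encodes an enzyme of membrane anchor synthesis, stood at 4.14 ± 0.163 FPKM in the libraries labelled Ad-SPTBN1 and 4.11 ± 0.575 FPKM in those labelled Ad-scramble (SD, n = 3 each). Siah1b, a ubiquitin ligase gene upstream of it, was higher in the libraries labelled Ad-SPTBN1, by 0.32 ± 0.06 on the log2 scale (SE, limma adjusted p = 0.0146).

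The genes around the family were tested as 8 lists of 156 genes, of which 142 were tested; 13 rose and 18 fell, which is 21.8% of those tested, beside 11.0% of all 12608 genes tested. By list the called share was 12.8% (signal relay) to 85.7% (AP-1 subunits), except for a list with 0 called, and nothing particular to a list is read from these shares. Over the alternatives the number called ran from 0 to 6 for ligand processing, 2 to 6 for receptor regulation, 1 to 5 for semaphorins and plexins, 2 to 10 for signal relay, 3 to 7 for induced genes, 3 to 6 for AP-1 subunits, 0 to 3 for regulators of transcription and 1 to 8 for other angiogenic factors. The proteins that bind, process or hold the ligands had 2 of 15 higher and 2 lower, with a median log2 difference of -0.027. The protease Mmp9, which can free ligand from the matrix, rose to 5.65 ± 0.173 FPKM in the libraries labelled Ad-SPTBN1, against 4.21 ± 0.378 FPKM in those labelled Ad-scramble (limma adjusted p = 0.0145). Sparc, a matrix protein that binds VEGF, rose by 0.12 ± 0.03 (adjusted p = 0.0356), whereas Thbs2, an inhibitor of vessel growth, changed by -0.14 ± 0.03 (adjusted p = 0.0149). The convertase Pcsk5, one of the enzymes that cut the precursors of Vegfc and Vegfd, changed by -0.23 ± 0.06 (SE, adjusted p = 0.0422). Adamts3 and Ccbe1, which together activate the Vegfc precursor, were under the minimum of 1 FPKM and were not tested. The call on Mmp9 was lost without Ad-SPTBN1 replicate 1 or 3 or Ad-scramble replicate 1 (adjusted p 0.0517 to 0.0540), and Thbs2 was no longer called without any 1 Ad-SPTBN1 replicate or Ad-scramble replicate 1 (0.0507 to 0.0575). That on Sparc was lost when any library other than Ad-scramble replicate 2 was left out (0.0684 to 0.123), and that on Pcsk5 without any 1 of the 6 libraries (0.0591 to 0.122).

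Among 18 tested regulators of the receptors 2 rose and 2 fell, with a median of -0.015. Itga9, an integrin subunit that binds Vegfc and Vegfd, had 22.36, 21.29 and 21.93 FPKM in the libraries labelled Ad-SPTBN1, against 29.70, 29.85 and 28.83 FPKM in those labelled Ad-scramble. Itga9 thus fell, in the same direction as Vegfd, by 0.41 on the log2 scale (SE 0.03, limma adjusted p = 0.000820), and the call held under all 16 alternatives. The endothelial phosphatase Ptprb, which acts on the receptor kinase Tek and on Kdr signalling, changed by -0.25 ± 0.04 (adjusted p = 0.0132), the adaptor Sh2b3 by 0.17 ± 0.04 (adjusted p = 0.0239) and the integrin subunit Itgb3 by 0.24 ± 0.05 (SE, adjusted p = 0.0286). Leaving out Ad-scramble replicate 1 ended the call on Ptprb (adjusted p = 0.0523). The call ended for Sh2b3 on leaving out any 1 of the 6 libraries (0.0523 to 0.0801) and for Itgb3 on leaving out any other than Ad-scramble replicate 1 (0.0531 to 0.0942).

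Of 11 tested class 3 semaphorins and plexins, which include other ligands of the neuropilins and receptors that signal with them, 2 rose and 1 fell, with a median of -0.070. Sema3f, which binds mainly the protein of Nrp2, came to 12.54, 12.20 and 12.10 FPKM in the libraries labelled Ad-SPTBN1, against 15.40, 14.99 and 14.71 FPKM in those labelled Ad-scramble, with no overlap (limma adjusted p = 0.00482). Sema3e rose by 0.27 ± 0.05 (adjusted p = 0.0176) and Plxna1 by 0.14 ± 0.03 (SE, adjusted p = 0.0395). Sema3e was no longer called without any 1 Ad-SPTBN1 replicate or Ad-scramble replicate 3 (adjusted p 0.0511 to 0.0636), nor Plxna1 when any library other than Ad-SPTBN1 replicate 1 was left out (0.0777 to 0.116).

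Of 39 tested genes that relay the signal of the receptors, 3 rose and 2 fell, with a median of -0.001. Sphk1, the sphingosine kinase, rose by 0.17 ± 0.04 (limma adjusted p = 0.0247) and the small GTPase Nras by 0.18 ± 0.04 (SE, adjusted p = 0.0249). Sphk1 was no longer called when any library other than Ad-scramble replicate 2 was left out (adjusted p 0.0581 to 0.0836), nor Nras for any other than Ad-scramble replicate 3 (0.0536 to 0.0860).

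Of 18 tested genes that VEGF receptor signalling is known to induce, 3 rose and 3 fell, with a median of 0.026. The nuclear receptor Nr4a1 fell to 252.18, 263.87 and 257.97 FPKM in the libraries labelled Ad-SPTBN1, against 314.07, 327.63 and 300.15 FPKM in those labelled Ad-scramble (limma adjusted p = 0.00518). The adhesion molecule Vcam1 rose by 0.24 ± 0.03 (adjusted p = 0.00623), the prostaglandin synthase Ptgs2 by 0.17 ± 0.03 (adjusted p = 0.0123) and the endothelial proteoglycan Esm1 by 0.26 ± 0.05 (SE, adjusted p = 0.0222). The genes of this list therefore moved in both directions. The call on Esm1 was lost without Ad-SPTBN1 replicate 1, Ad-scramble replicate 1 or Ad-scramble replicate 3 (adjusted p from 0.0568 to 0.0699).

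AP-1 is the transcription factor of Fos and Jun proteins, and Vegfd was named in the mouse for its induction by c-Fos. Of its 7 subunit genes 1 rose and 5 fell, with a median of -0.190. Fos fell to 221.94, 218.18 and 221.21 FPKM in the libraries labelled Ad-SPTBN1, against 270.61, 278.25 and 271.94 FPKM in those labelled Ad-scramble (limma adjusted p = 0.000820). Fosb changed by -0.32 ± 0.03 (adjusted p = 0.00305), Jun by -0.19 ± 0.03 (adjusted p = 0.0123) and Jund by -0.23 ± 0.04 (SE, adjusted p = 0.0131). Fosl1, chosen after its values were seen, rose by 0.28 ± 0.06 (adjusted p = 0.0233). A role of these genes in the level of Vegfd was not tested. Jun was no longer called without Ad-scramble replicate 1 (adjusted p = 0.0509), with quantile normalization or with no minimum FPKM.

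The regulators of ligand transcription, with the hypoxia-inducible factors and their hydroxylases, had 0 of 16 called by limma, while 6 had an unadjusted p under 0.05 and 3 were called by voom. Ctnnb1 stood at 122 ± 1.92 FPKM in the libraries labelled Ad-SPTBN1 and 125 ± 0.623 FPKM in those labelled Ad-scramble (limma adjusted p = 0.516), and Myc had 79.0 ± 0.867 FPKM in the libraries labelled Ad-SPTBN1 and 79.7 ± 2.29 FPKM in those labelled Ad-scramble (adjusted p = 0.836). Hif1a encodes the oxygen-regulated factor that induces Vegfa and was picked with its values in view. It had 25.2 ± 0.129 FPKM in the libraries labelled Ad-SPTBN1 and 25.0 ± 1.48 FPKM in those labelled Ad-scramble (SD, n = 3 each, limma adjusted p = 0.846). Its protein was not measured. Other hypoxia genes of the list were less flat and are among the 6 with an unadjusted p under 0.05. Hif1an changed by 0.19 ± 0.06 (SE, limma adjusted p = 0.0804), Egln3 by 0.09 ± 0.03 (adjusted p = 0.136) and Epas1 by -0.08 ± 0.03 (adjusted p = 0.180).

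Among 18 other angiogenic growth factors and receptors 0 rose and 3 fell by limma, with a median of -0.071; 8 had an unadjusted p under 0.05 and 8 were called by voom. Those 3 were Pdgfd, Pdgfrb and Pdgfra. Their relatives on the list had log2 differences of -0.06 ± 0.04 for Pdgfa, -0.08 ± 0.05 for Pdgfb and 0.01 ± 0.05 for Pdgfc (SE), and were not called. The growth factor gene Pdgfd had 7.55, 7.16 and 7.26 FPKM in the libraries labelled Ad-SPTBN1, against 10.24, 8.93 and 9.64 FPKM in those labelled Ad-scramble, with no overlap (limma adjusted p = 0.00928), and the call held under all 16 alternatives. The receptors Pdgfrb and Pdgfra changed by -0.13 ± 0.02 (adjusted p = 0.0188) and -0.18 ± 0.04 (SE, adjusted p = 0.0248). Pdgfrb was no longer called without any 1 Ad-SPTBN1 replicate or Ad-scramble replicate 1 (adjusted p 0.0588 to 0.0700), nor Pdgfra when any library other than Ad-SPTBN1 replicate 2 was left out (0.0648 to 0.0859).

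**Figure D5:**
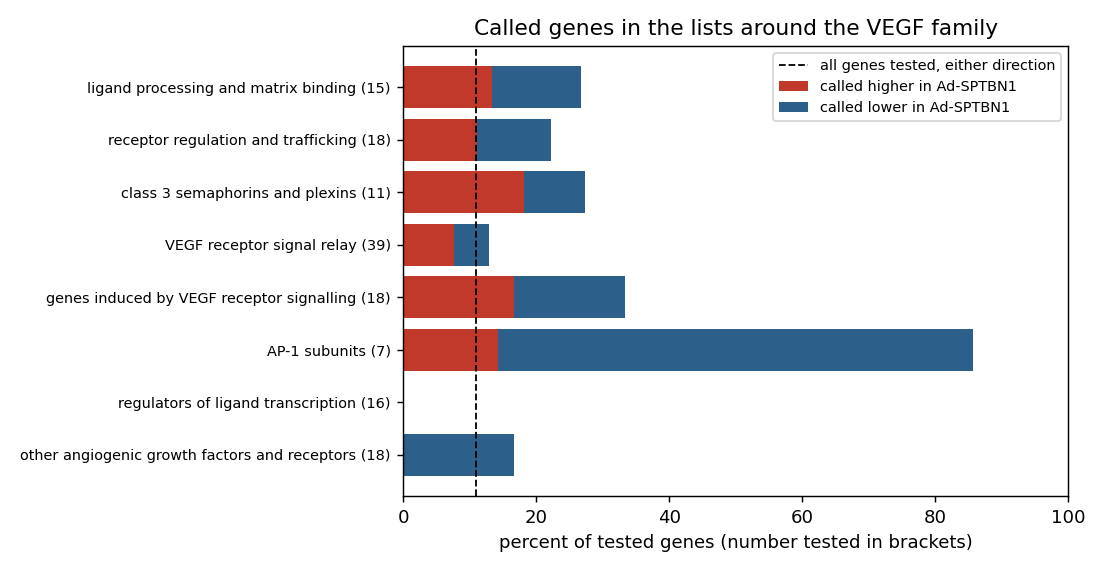
Percent of the tested genes of each list that limma called higher (red) or lower (blue) in Ad-SPTBN1, with the number tested in brackets and a dashed line at the 11.0% of all 12608 tested genes called in either direction. AP-1 subunits have 1 higher and 5 lower of 7, and the regulators of ligand transcription have none of 16.

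Markers of the cell types that make or receive VEGF signals moved unequally beside these results. Over all 12608 genes tested, limma called 5.54% higher and 5.50% lower. Of 13 tested blood endothelial markers 0 were called by limma and 0 by voom, 1 had an unadjusted p under 0.05, and their summed level was 57.9 to 58.6 FPKM in the libraries labelled Ad-SPTBN1 and 58.1 to 62.3 FPKM in those labelled Ad-scramble. Of the lymphatic endothelial markers only 3 passed the minimum level. Pdpn, which fibroblasts and mesothelium also express, was higher, while Prox1, Reln and Mmrn1 were under 1 FPKM. Lyve1 had 4.09 ± 0.477 FPKM in the libraries labelled Ad-SPTBN1 and 5.30 ± 0.590 FPKM in those labelled Ad-scramble (SD, n = 3 each, limma adjusted p = 0.0807), and Sox18 had 3.50 ± 0.197 FPKM in the libraries labelled Ad-SPTBN1 and 4.49 ± 0.571 FPKM in those labelled Ad-scramble. On leaving out 1 library, 1 marker of the list was called without Ad-SPTBN1 replicate 2 and 0 without any 1 of the others. The list had a median log2 difference of -0.285, whereas its summed level, most of it Pdpn, was 46.0 to 50.0 FPKM in the libraries labelled Ad-SPTBN1 and 42.6 to 45.2 FPKM in those labelled Ad-scramble. Of 12 cardiac fibroblast markers 0 rose and 8 fell by limma (10 had an unadjusted p under 0.05 and 10 were called by voom), with a summed level of 4508 to 4731 FPKM in the libraries labelled Ad-SPTBN1 and 4280.5 to 4611 FPKM in those labelled Ad-scramble. The sum is set largely by Col1a1, which was not called (limma adjusted p = 0.0560) and whose mean lay in the other direction from the 8 called markers. On leaving out 1 library 3 to 6 of these markers were called, with 3 without Ad-SPTBN1 replicate 1 or Ad-scramble replicate 1, 4 without Ad-SPTBN1 replicate 2 or 3, 5 without Ad-scramble replicate 3 and 6 without Ad-scramble replicate 2. With no minimum FPKM, or without a trend in the prior variance, 4 were called. Pdgfra and Pdgfrb stand both on marker lists and among the growth factor receptors above. Of 10 smooth muscle and pericyte markers 1 rose and 3 fell, with a summed level of 1862 to 1889 FPKM in the libraries labelled Ad-SPTBN1 and 1907 to 1930.3 FPKM in those labelled Ad-scramble. Of 10 tested cardiomyocyte markers 7 rose and 0 fell (9 had an unadjusted p under 0.05 and 8 were called by voom). The other 5 of the 15 listed, Myh7, Ryr2, Pln, Ttn and Ckm, were under 1 FPKM and were not tested. The summed level of all 15 was 132 to 138 FPKM in the libraries labelled Ad-SPTBN1 and 80.6 to 86.9 FPKM in those labelled Ad-scramble. Of 9 tested epicardial and mesothelial markers 5 rose and 0 fell (7 had an unadjusted p under 0.05 and 5 were called by voom), with a summed level of 271 to 274 FPKM in the libraries labelled Ad-SPTBN1 and 245 to 254 FPKM in those labelled Ad-scramble. Of 3 tested macrophage markers 0 were called by limma or voom and 0 had an unadjusted p under 0.05, and the summed level was 12.7 to 14.1 FPKM in the libraries labelled Ad-SPTBN1 and 13.4 to 14.1 FPKM in those labelled Ad-scramble. The epicardial marker Lrrn4 and the macrophage markers Adgre1, Cd14, Ptprc and Aif1 were under 1 FPKM and were not tested. The lymphatic marker Ccl21a matched no gene of the deposited values. No other marker on these lists was at 0 in all 6 libraries, though Ptprc had at most 3 reads and Adgre1 at most 2 reads in a library. The part of these shifts in the levels of Vegfd, Nrp1 and the other members was not tested.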

How the data were processed

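Per the labels' protocols, total RNA from TRIzol extraction went into NEBNext Ultra libraries. The authors deposited FPKM values, 1 column per library, on GRCm38 (mm10) per the submitters' processing notes. Which aligner, counter, annotation and strand setting were used is not given in the sources used here. Columns were matched to libraries through the sample number in the labels. The 12608 genes averaging 1 FPKM or more entered limma 3.58.1 (R 4.3.3) on the log2(FPKM + 1) scale. Its prior variance followed a trend with level, p-values were adjusted by Benjamini-Hochberg over these genes, and genes with an adjusted p under 0.05 were called. This scale understates the fold changes of low genes. With exon lengths from GENCODE M21, of the same build, 95.6% to 95.7% of values above 0 in a library were whole reads within 0.1, and these reads measure depth. The library totals fitted to the FPKM values were 18223042 to 19062983. They lay below the summed recovered reads in each library, and the reason was not tested. Named genes are the members, up to 4 called genes per pathway list by adjusted p (or the 2 most abundant members of a list with none), the 5 genes nearest to Vegfd with the classes named above left out, and Sptbn1. Members and lists were chosen with earlier results of these data known. Alternatives changed the pseudocount, the minimum level, the scaling, the variance prior or the weighting of libraries, blocked on replicate number, or left 1 library out; voom on recovered reads was added after the data were seen. No 2 libraries held identical values. Some genes that the naming rule took are not reported here.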

Additional observations from a re-analysis of the deposited data

How the results depend on the processing

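Over 16 alternatives Vegfd ranged from -0.71 to -0.46 and Nrp1 from 0.24 to 0.32 on the log2 scale. Vegfc, not called in the main fit, was called with a minimum mean of 5 FPKM, and Flt4 likewise with voom. The other members not called in the main fit were called under none of the alternatives. Nothing is read from these calls of members. A pseudocount of 5 gave -0.46 for Vegfd and 0.24 for Nrp1, a scale that by construction shrinks the differences of low genes, and voom on the recovered reads gave -0.71 for Vegfd. The 1391 called genes (698 higher, 693 lower) became 665 (334 and 331) with no minimum FPKM, 730 (369 and 361) with the replicate block and 2144 (1048 and 1096) with voom, and the 31 called pathway genes became 16, 18 and 51 under these settings. Having no minimum FPKM adds genes both to the adjustment and to the variance prior, and their parts were not separated. Leaving out 1 library gave 620 to 867 genes (300 to 442 higher, 320 to 435 lower), and the pathway genes called came to 14 to 24. Libraries of equal replicate number showed no shared pattern: deviations from the group means correlated at 0.006, -0.034 and 0.01 for numbers 1, 2 and 3. The labels do not say whether equal numbers were prepared together, and these correlations cannot tell. Of 26 called pathway genes that the naming rule took, 11 were called under every alternative. With the replicate block 10 were lost (Mmp9, Thbs2, Sparc, Pcsk5, Sema3e, Plxna1, Sphk1, Nras, Pdgfrb and Pdgfra). With no minimum FPKM 10 were lost (Sparc, Pcsk5, Sh2b3, Itgb3, Plxna1, Sphk1, Nras, Esm1, Jun and Pdgfra). Without a trend in the prior variance 6 were lost (Thbs2, Sparc, Pcsk5, Sh2b3, Plxna1 and Pdgfrb), and 2 (Plxna1 and Jun) with quantile normalization. Myc, not called, ranged from -0.03 to 0.01 on leaving out 1 library, with 0.01 without Ad-scramble replicate 2. The order of the members' levels kept 7 and 8 separate pairs with median ratio scaling (Ad-SPTBN1 and Ad-scramble) and 7 to 9 without 1 library. Vegfb, at 143 to 195 reads, is the member whose difference depth and spread limit most.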
